A study of Homo sapiens with 80 samples.

Results

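NANOG, SOX2, LIN28A, LIN28B, ZFP42, L1TD1, DPPA4, PRDM14 and SALL4 are genes of the pluripotent state, and their RNA was followed as human pluripotent stem cells were turned into cardiomyocytes. These 9 genes were taken by name from the 43388 genes listed in both tables of TPM values (a transcript level scaled for gene length and library depth). Earlier results of these data were known when they were chosen. All 9 passed the filter on low values in both experiments. POU5F1, the gene of OCT4, was not used here.

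Differentiations of high and low purity were compared, purity being the share of cells that stained for cardiac troponin T, a protein of heart muscle fibres, after day 16. In each differentiation CHIR99021, a GSK3 inhibitor that activates WNT signalling, was given on day 0, and IWP2, which blocks WNT secretion, on day 2 for the line WTC11 and on day 3 for the other lines. B27 with insulin followed from day 6 or 7. In the multi-omic experiment, poly(A) RNA was sequenced from the induced pluripotent line WTC11, in 25 wells of 1 high purity differentiation begun at passage 52 and 31 wells of 1 low purity differentiation begun at passage 69. Each class had 4 wells on days 0, 2, 4 and 6. On days 8, 10, 13 and 16 the high purity class had 3, 1, 2 and 3 wells and the low purity class 4, 4, 4 and 3. In the RNA-only experiment, total RNA was sequenced from 24 libraries, 1 at each of 4 stages from a high and a low purity differentiation of H9 (an embryonic stem cell line; passages 58 and 55), IMR90-4 (an induced pluripotent line; passages 55 and 75) and WTC11 (passages 81 and 69). Stage 1 was day 0, and stages 2, 3 and 4 were days 2, 4 and 6 for WTC11 and days 3, 5 and 7 for H9 and IMR90-4.

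Wells of 1 differentiation share their starting cells, so multi-omic p-values measure the spread within a differentiation, and purity class, passage and differentiation cannot be told apart. In bulk RNA, fewer cells expressing a gene and less RNA per cell also cannot be told apart.

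Pluripotent cells are held in their state by a small network of transcription factors. NANOG, SOX2 and OCT4 bind their own and each other's regulatory DNA, and exit from pluripotency requires this network to be shut down. PRDM14 and SALL4 are DNA-binding regulators tied to it. ZFP42 (also called REX1) and DPPA4 are nuclear proteins widely used as markers of undifferentiated cells, and L1TD1 is an RNA-binding protein derived from a LINE-1 transposon. LIN28A and LIN28B are RNA-binding proteins that block the maturation of let-7 microRNAs, which accumulate in differentiated cells.

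Letters of the elements that these factors recognise were found just before some of these genes. RefSeq promoters on GRCh38.p14 held 7 entries for 6 of the genes (none for LIN28A, PRDM14 and SALL4), and the 250 bases before each start were searched on both strands. The composite OCT-SOX element was searched as the SOX element CATTGT, any 1 base and the 7-letter octamer ATGCAAA, and was found in 2 of 35116 promoters (0.0057%), 1 of them NANOG's. Its parts were also searched alone and were found in 9.29% (CATTGT) and 3.94% (ATGCAAA) of promoters. The full octamer ATGCAAAT was found in 1.63% of promoters and in none of the 7 entries. The entries of ZFP42, L1TD1 and DPPA4 and the other LIN28B entry held no match to any of these elements. The windows below are printed 5′ to 3′ on the plus strand, with the matched letters in capitals. They are shown because OCT4 and SOX2 are known to recognise elements of these kinds.
NANOG, composite OCT-SOX element on the strand opposite to the gene, chr12:7789267-7789310: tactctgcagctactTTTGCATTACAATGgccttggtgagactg
SOX2, 7-letter octamer, chr3:181711810-181711846: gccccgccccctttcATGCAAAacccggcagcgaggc
LIN28B, SOX element, chr6:104940810-104940845: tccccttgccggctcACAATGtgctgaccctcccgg
The matches lay 120, 100 and 140 bases before the RefSeq starts of NANOG, SOX2 and LIN28B. In GENCODE v29 (GRCh38) none of these windows overlapped an exon. The NANOG window was in an intron of a longer NANOG transcript, the SOX2 window in introns of SOX2-OT, and the LIN28B window in introns of LIN28B and LIN28B-AS1. A match of letters is a description and not evidence of binding.

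The multi-omic TPM and count tables name their columns differently. Reads recovered from TPM matched 0 of the 56 count columns by name, and 50 count columns under another name. The TPM names were used, since 32 of 32 TPM columns of days 0 to 6 were nearest to an RNA-only WTC11 library of the same day, against 6 of 32 count columns. This check bears on the day and not on the purity class. Under the count table's own names 27 of the 84 called member values kept their direction. The multi-omic libraries had 6578961 to 18141738 recovered reads and those of the RNA-only experiment 17990882 to 40357968 counted reads. On days 0 to 6 the high purity wells were deeper than the low purity wells (medians 12676993 and 8069013), which affects the precision of low values such as those of NANOG on day 6. The 6 markers of cardiomyocytes summed to 9940 to 12100 TPM in the high purity wells on day 16 and to 3290 to 4460 TPM in the low purity wells, in the order of the labels. On day 4 that order was the opposite, with 72.3 to 105 TPM in the high purity wells and 1090 to 1240 TPM in the low purity wells.

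On day 0 the undifferentiated WTC11 cells expressed all 9 genes strongly, at mean levels from 79.4 TPM (PRDM14) to 2020 TPM (LIN28A) in the high purity class. The order from the top was LIN28A, L1TD1 (1220 TPM), DPPA4 (796 TPM), SOX2 (282 TPM), LIN28B (183 TPM), ZFP42 (148 TPM), SALL4 (137 TPM), NANOG (102 TPM) and PRDM14, and the wells of neighbours in this order did not overlap. In the low purity class L1TD1 (1560 TPM) and LIN28A (1550 TPM) overlapped at the top, as did SALL4 (132 TPM) with ZFP42 (131 TPM) and NANOG (92.5 TPM) with PRDM14 (91.2 TPM). LIN28A was at 2047, 1965, 2082 and 2003 TPM in the high purity wells and at 1555, 1502, 1569 and 1568 TPM in the low purity wells. L1TD1 had the opposite order, at 1148, 1232, 1229 and 1272 TPM against 1721, 1554, 1493 and 1480 TPM. Neither gene's wells overlapped between the classes.

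Genes were tested with limma on log2(TPM divided by a TMM scaling factor, plus 1), a scale that understates the change of low genes. A gene was called when its Benjamini-Hochberg adjusted p over 25664 genes was under 0.05 and its log2 difference was at least 1 in size. Only called genes are said below to have risen, fallen or changed. On day 0, 0 of the 9 genes were called between the classes, beside 1.07% of all genes. LIN28A was 0.32 higher in the high purity class (SE 0.08, limma adjusted p = 0.00524) and L1TD1 was 0.42 lower (log2 difference -0.42, SE 0.12, limma adjusted p = 0.01). These were the 2 members with an unadjusted p under 0.05, and edgeR on the recovered reads also called 0. Wells did not overlap for 7 of 9 genes, against 21.8% of all genes.

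**Figure D1:**
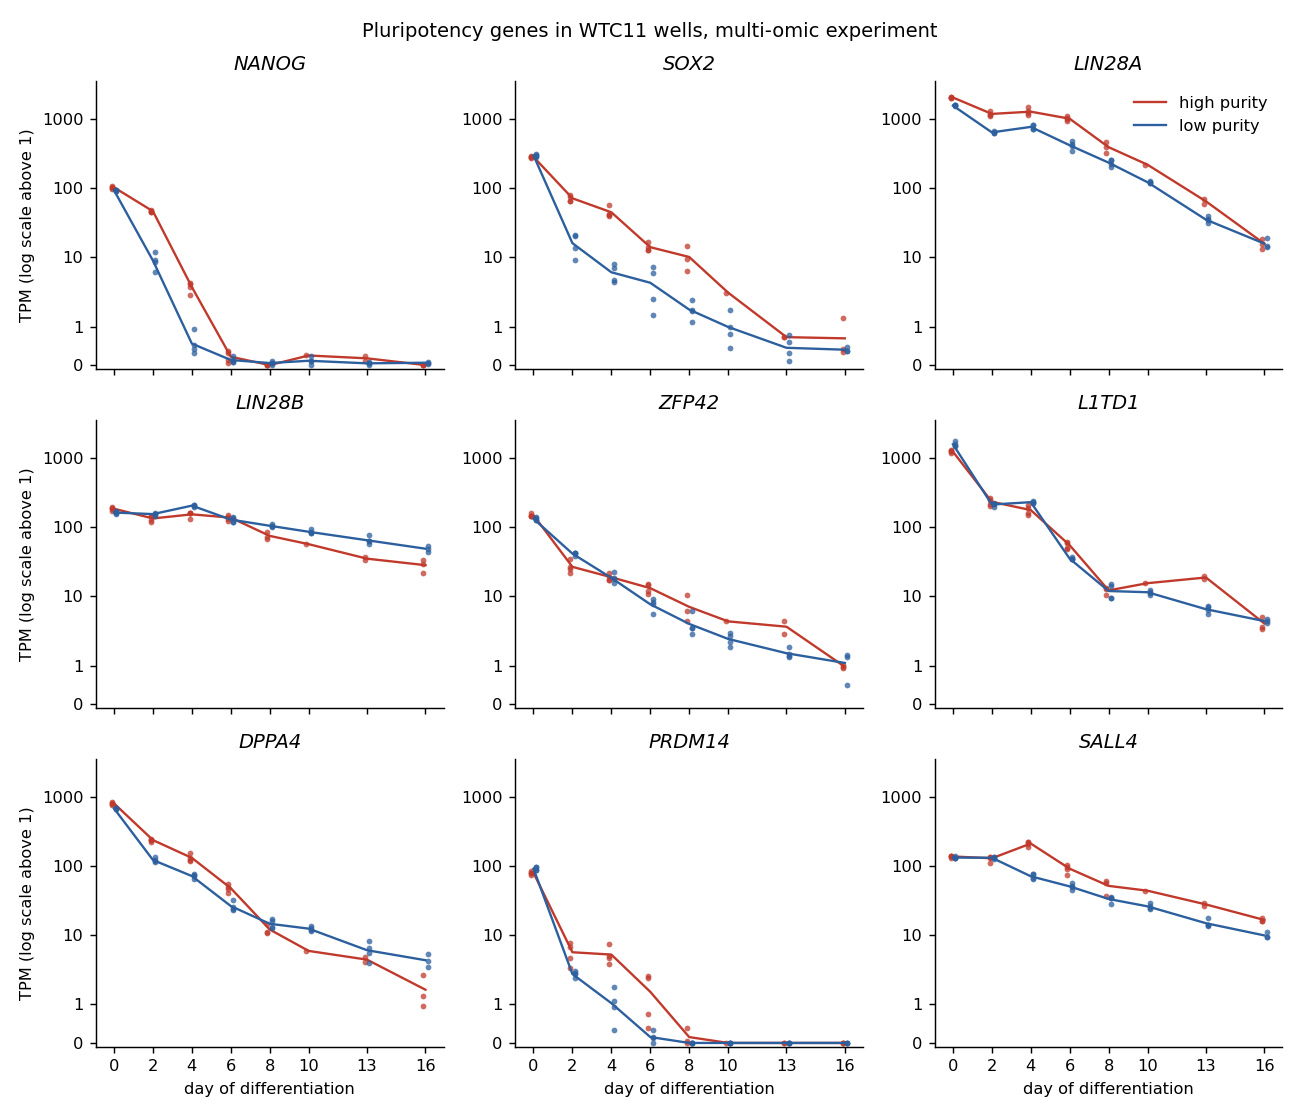
TPM of each of the 9 genes (axis on a log scale above 1 TPM and linear below) against day of differentiation, with each point a multi-omic WTC11 well, high purity in red, low purity in blue and lines through the class means. On day 2 NANOG lies at 44.43 to 48.84 TPM in the high purity wells and 6.147 to 11.97 TPM in the low purity wells, and the SALL4 mean on day 4 is 210 TPM against 70.7 TPM.

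NANOG (chr12:7787794-7799141, GENCODE v29 on GRCh38, as for the positions that follow) is a homeodomain transcription factor of the core network. On the log2 scale of the test, which understates the change of low values, it separated the classes most on day 2. Its day 0 means were 102 ± 4.38 TPM in the high and 92.5 ± 1.31 TPM in the low purity class (SD, n = 4). It stood on day 2 at 44.46, 48.84, 44.43 and 46.78 TPM in the high purity wells. The low purity wells held 6.147, 9.177, 11.97 and 8.548 TPM. The lowest high purity well was thus well above the highest low purity well, with 45.1% of the day 0 mean left in the high purity class and 9.68% in the low purity class. The difference was 2.34 (log2 scale, SE 0.12, limma adjusted p = 2.39e-20). On day 4 the high purity wells were at 4.067, 4.268, 3.682 and 2.838 TPM and the low purity wells at 0.426, 0.9438, 0.5335 and 0.3252 TPM, a difference of 1.58 (SE 0.12, limma adjusted p = 2.11e-15). The shares left were then 3.63% and 0.602%, further apart as a ratio than on day 2, with 6 to 16 reads in the low purity wells. NANOGP8, a retrogene nearly identical to NANOG, can take some of its reads, so the NANOG level carries that uncertainty. From day 6 on NANOG was near or at 0 in both classes: day 6 wells held 1 to 7 reads in the high purity class and 1 to 3 reads in the low purity class. On day 8 all 3 high purity wells were at 0, at least 695-fold lower than on day 0, taking 3 reads per library as the floor.

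SOX2 (chr3:181711924-181714436), the SRY-box factor that binds with OCT4, was called between the classes on 4 successive days. The day 2 wells held 79.76, 64.52, 64.74 and 75.3 TPM in the high purity class and 9.277, 21.08, 20.2 and 13.47 TPM in the low purity class. On day 4 they held 41.13, 42.42, 56.09 and 39.05 TPM against 4.777, 7.066, 8.127 and 4.366 TPM. The classes did not overlap on either day, and the high purity class kept 25.2% and then 15.9% of its day 0 mean while the low purity class kept 5.4% and 2.05%. On day 6 SOX2 stood at 12.79, 16.51, 14.02 and 12.7 TPM against 5.85, 7.318, 2.541 and 1.467 TPM. On day 8 it stood at 14.48, 6.315 and 9.544 TPM against 1.177, 1.749, 1.692 and 2.426 TPM. The differences on days 2, 4, 6 and 8 were 2.21, 2.71, 1.63 and 2.13 (log2 scale, SE 0.25 to 0.27), with limma adjusted p of 6.79e-10, 1.86e-12, 5.49e-07 and 6.4e-09. On day 13 all wells of both classes were below 1 TPM.

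PRDM14, a PR-domain factor that helps hold the human pluripotent state, fell in both classes within 2 days, and had the lowest share left of the 9 genes on day 2. On day 2 it was at 4.705, 6.769, 3.387 and 7.807 TPM in the high purity wells, 7.14% of the day 0 mean, and at 2.711, 2.401, 2.806 and 3.078 TPM in the low purity wells, 3.02%. On day 4 it was at 4.999, 4.626, 7.449 and 3.893 TPM in the high purity wells, which overlapped with their day 2 values, and at 1.108, 1.79, 0.9446 and 0.329 TPM in the low purity wells, all below theirs. The day 4 difference was 1.61 (log2 scale, SE 0.19, limma adjusted p = 2.35e-09), while that on day 2 was 0.84 (SE 0.19, limma adjusted p = 0.000426) and below the fold threshold. On day 6 the wells held 0.748, 2.553, 2.394 and 0.3981 TPM against 0.1508, 0.3259, 0.1383 and 0 TPM, a difference of 0.96 that was not called and that edgeR on the recovered reads put at 3.12 and called. From day 8 all low purity wells were at 0, at least 237-fold lower than on day 0 on day 8, and from day 10 all high purity wells were at 0 as well.

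DPPA4 (chr3:109326141-109337572), a chromatin-associated protein, fell in both classes by day 2, and the difference of its change between them was 0.84 (SE 0.18, limma adjusted p = 0.000447, not called). Its wells were then at 233.3, 246.3, 222.9 and 238.2 TPM in the high purity class, 29.6% of the day 0 mean, and at 113.8, 132.8, 122.6 and 116.5 TPM in the low purity class, 18.0%. They did not overlap, and the difference was 1.02 (log2 scale, SE 0.13, limma adjusted p = 8.3e-09), only just past the fold threshold. It was under the threshold without TMM scaling (0.95), with RLE scaling (0.99) and without the low purity day 2 well 1 (0.98) or 4 (0.99). On days 4 and 6 DPPA4 remained higher in every high purity well, by 0.86 and 0.82, and on day 8 the wells overlapped. On day 16 the order was the opposite, at 0.954, 2.624 and 1.32 TPM against 4.287, 5.297 and 3.46 TPM, a difference of -0.95 (SE 0.15, limma adjusted p = 5.1e-07) that was not called. edgeR on the recovered reads called it, at -1.25, and so did limma without the high purity well 2 (-1.18) or the low purity well 3 (-1.08).

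ZFP42 (chr4:187995771-188005050), a zinc-finger protein, had less left in every high purity well than in any low purity well on day 2. It was at 26.09, 21.65, 24.43 and 34.01 TPM in the high purity wells and at 42.02, 41.89, 38.51 and 42.44 TPM in the low purity wells. All low purity wells were above all high purity wells, with 18.0% and 31.4% of the day 0 means left, although the difference of -0.57 (log2 scale, SE 0.17, limma adjusted p = 0.00708) was below the fold threshold. On day 4 the means were 18.8 ± 2.0 and 18.4 ± 2.74 TPM (SD, n = 4) and the wells overlapped. On day 6 they were 13.1 ± 1.91 and 7.65 ± 1.47 TPM (SD, n = 4), now higher in every high purity well (0.69, SE 0.17, limma adjusted p = 0.00105, not called).

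L1TD1 (chr1:62194831-62212328) fell in both classes from day 2 on. Day 2 means were 231 ± 27.6 TPM in the high purity class and 210 ± 11.9 TPM in the low purity class (SD, n = 4), 18.9% and 13.5% of day 0. On day 4 the low purity wells were all higher, at 238.5, 232.7, 218.9 and 221.5 TPM against 158.8, 187.9, 207.4 and 146.4 TPM (-0.38, SE 0.12, limma adjusted p = 0.00684, not called). On day 6 they were all lower, at 34.22, 36.34, 34.05 and 34.6 TPM against 50.42, 59.77, 48.84 and 58.66 TPM (0.61, SE 0.12, limma adjusted p = 2.93e-05, not called). The day 8 means of 12.1 ± 1.64 (n = 3) and 11.9 ± 3.02 TPM (n = 4) overlapped.

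The LIN28 paralogs (LIN28A at chr1:26410778-26429722 and LIN28B at chr6:104936616-105083332) kept more of their day 0 level than most of the other genes and differed from each other. LIN28A wells were at 1118, 1300, 1107 and 1172 TPM on day 2 in the high purity class and at 630, 612.7, 640.7 and 658.9 TPM in the low purity class. On day 6 they were at 985.9, 1089, 1009 and 916.6 TPM against 403.7, 478.5, 428.4 and 345.7 TPM. The high purity class thus kept 49.4% of its day 0 mean on day 6 and the low purity class 26.7%, and the classes overlapped on neither day. The LIN28A differences on days 2, 4, 6 and 8 were 0.95, 0.73, 1.26 and 0.96 (log2 scale, SE 0.08 to 0.09), of which that on day 6 was called (limma adjusted p = 1.01e-16). Without the high purity well 4 or the low purity well 3 of day 8, the day 8 difference was called too (1.01 and 1.02).

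LIN28B stood near its day 0 level in the low purity class on days 2 and 4, when LIN28A had fallen there (-1.45 and -1.24). On day 4 LIN28B was at 209, 206.2, 196.3 and 200.7 TPM in the low purity wells and at 160.8, 130.1, 158.8 and 158.4 TPM in the high purity wells, 126% and 83.1% of the day 0 means. Every low purity well was above every high purity well, with a difference of -0.41 (log2 scale, SE 0.07, limma adjusted p = 6.94e-06, not called). The low purity wells were also above on day 8, at 103.7, 108.5, 101.1 and 102.7 TPM against 83.61, 72.29 and 66.93 TPM, and on day 16, at 53.91, 43.27 and 48.41 TPM against 21.76, 33.15 and 29.3 TPM. LIN28B shares 67 exon bases with the antisense gene LIN28B-AS1, 1.12% of its exon bases.

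The ratio of LIN28A to LIN28B in TPM separated the classes at every time. It was 10.6 to 11.9 in the high purity wells on day 0 and 9.09 to 10.2 in the low purity wells. On day 2 it was 7.75 to 11.0 against 4.05 to 4.26, and on day 8 it was 4.75 to 5.45 against 1.94 to 2.54. The day 13 ratios were 1.6 to 2.11 and 0.403 to 0.635, so that LIN28B was the more abundant paralog in every low purity well while LIN28A still was in both high purity wells. On day 16 LIN28B was the more abundant in all 6 wells, at ratios of 0.533 to 0.597 and 0.271 to 0.432. The ranges did not overlap on any of the 7 days with 2 or more wells per class. A two-sided exact permutation test of the ratio gave p = 0.0286 on days 0, 2, 4 and 6, the smallest that 4 against 4 wells allow, and 0.0571, 0.133 and 0.1 on days 8, 13 and 16, the smallest their numbers allow. After Benjamini-Hochberg adjustment over the 7 days the exact p on days 0 to 6 was 0.0501.

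**Figure D2:**
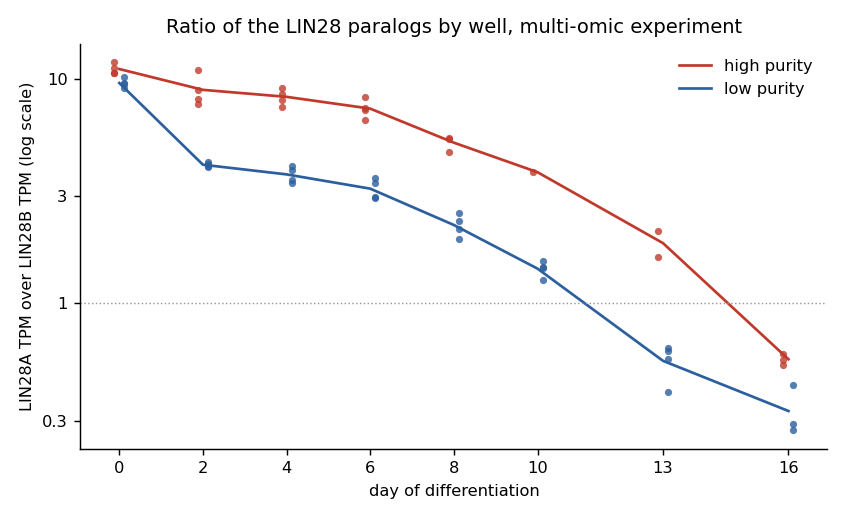
Ratio of LIN28A to LIN28B (TPM over TPM, log axis) in every multi-omic well against day, by purity class, with lines through the class means. The ratio starts at means of 11.1 and 9.61, is 8.95 against 4.15 on day 2, and ends below 1 in both classes on day 16.

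SALL4 (chr20:51782331-51802520), a spalt-like zinc-finger factor that is also active in early mesoderm and endoderm, held its level to day 2 and then parted by class. Its day 2 means were 94.1% of day 0 in the high purity class and 99.3% in the low purity class. On day 4 the high purity wells stood at 222.8, 189.4, 223.3 and 204.2 TPM and the low purity wells at 67.41, 75.18, 75.41 and 64.93 TPM, 154% and 53.7% of the day 0 means. All high purity wells were thus above every day 0 well and all low purity wells below. The difference was 1.56 (log2 scale, SE 0.08, limma adjusted p = 4.57e-20). The gain in the high purity class itself was 0.46 (SE 0.08, limma adjusted p = 5.13e-06) and below the fold threshold. The loss in the low purity class was -1.11 (SE 0.08, limma adjusted p = 8.01e-16), and -0.89 without TMM scaling. SALL4 remained higher in every high purity well on days 6, 8, 13 and 16, by 0.81, 0.81, 1.05 and 0.90.

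Between the classes, 3, 4, 2, 1 and 4 of the 9 genes were called on days 2, 4, 6, 8 and 13, all of them higher in the high purity class. Over all tested genes the share called in that direction was 2.25, 3.62, 3.61, 4.66 and 4.55% on these days, so the members' counts on days 2, 4 and 13 were 3 and 4 of 9 against a background under 5%. The members called were NANOG, SOX2 and DPPA4 on day 2, NANOG, SOX2, PRDM14 and SALL4 on day 4, and SOX2 and LIN28A on day 6. SOX2 was called on day 8, and LIN28A, ZFP42, L1TD1 and SALL4 on day 13. Wells did not overlap for 6, 8, 7, 4 and 6 of 9 genes on these days, beside 34, 31.7, 30.7, 42.2 and 47.5% of all genes, so that on day 8 the members were near the background. On day 16, 0 genes were called, with 4 at an unadjusted p under 0.05 and 1, DPPA4, by edgeR. The share of all genes called either way that day was 13.4%.

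Several marker sums moved with these differences. On day 4 mesendoderm markers summed to 140 to 164 TPM in the high purity wells and 30.3 to 32.3 TPM in the low purity wells, with all 6 markers at 1 TPM or more in both classes. Germ cell markers, of a lineage in which SALL4 and PRDM14 are also active, summed to 27.7 to 38.5 against 11.1 to 15 TPM on day 2, with DPPA3 at 0 in every well of both classes. Endoderm markers summed to 849 to 1270 against 173 to 378 TPM on day 6 and 772 to 1500 against 68.6 to 131 TPM on day 8. Neuroectoderm markers, of a lineage that keeps SOX2, had the opposite order on day 2 at 103 to 117 against 163 to 176 TPM, with PAX6 at 0 in every well of both classes and SOX1 at 0 in every high purity well. Endothelial markers summed to 195 to 228 against 63.1 to 84 TPM on day 2, with CDH5 at 0 in every well. In each class 2 of the 6 markers were then at 1 TPM or more. On day 4 the endothelial sums were 206 to 272 against 356 to 373 TPM. At that time 4 markers were at 1 TPM or more in the high purity class and 2 in the low purity class. Amnion and surface epithelium markers summed to 52 to 69.9 against 18.2 to 26.4 TPM on day 6. The part of these cells in the members' differences was not tested.

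**Figure D3:**
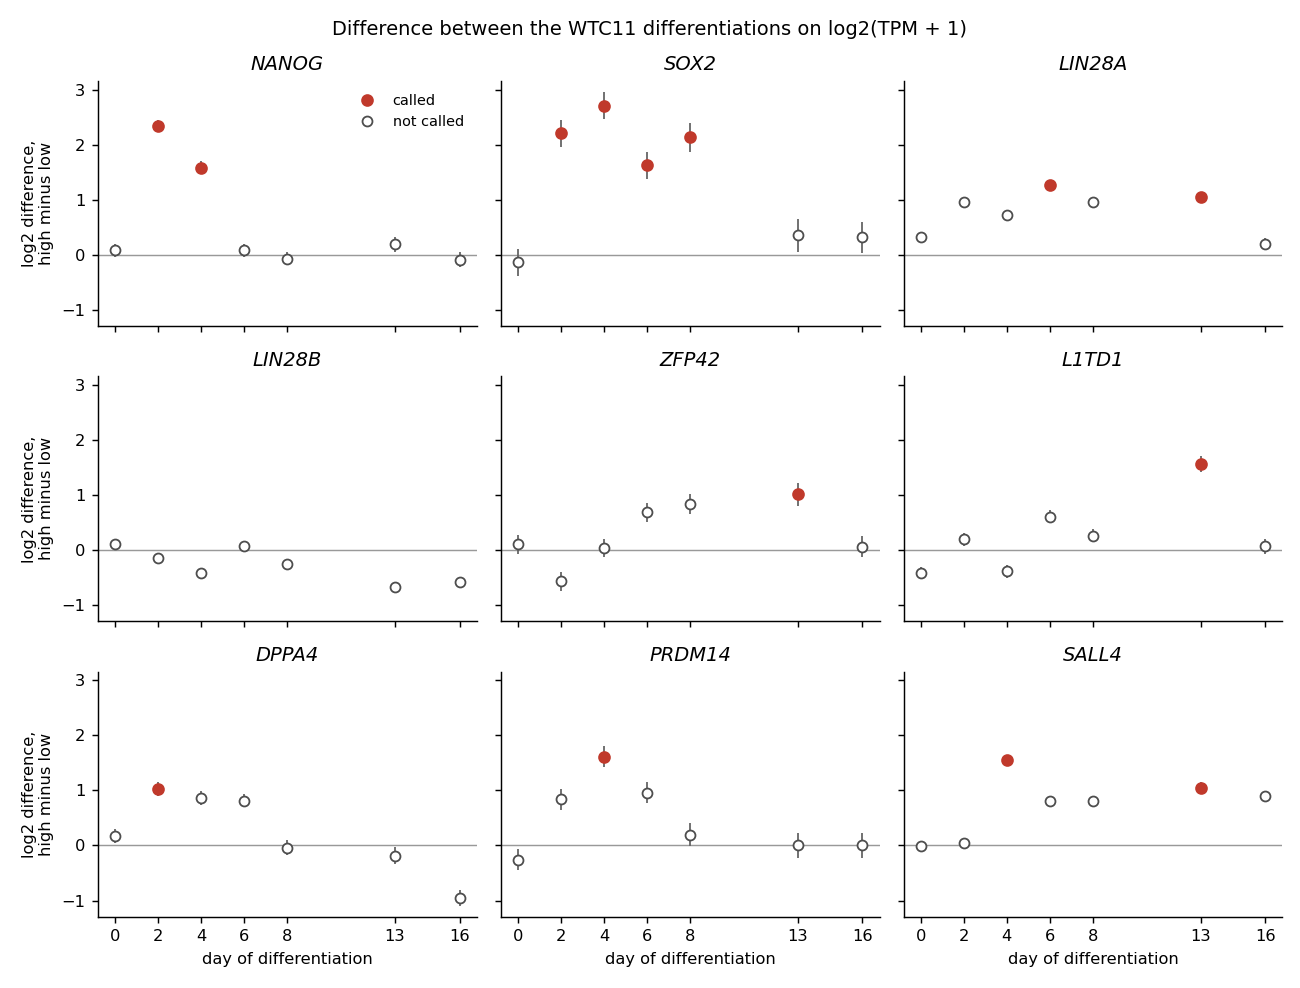
Difference between high and low purity classes (log2 scale, limma estimate, bars 1 standard error) for each of the 9 genes on days 0, 2, 4, 6, 8, 13 and 16, with called differences as filled points. SOX2 is called from day 2 to day 8, and LIN28B lies below 0 on days 2, 4, 8, 13 and 16.

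Measured against their own day 0, 6, 6, 7 and 9 of the 9 genes had fallen on days 2, 4, 6 and 8 in the high purity class, where 7.04, 7.75, 10.4 and 12.7% of all genes fell. In the low purity class 7, 8, 8 and 8 had fallen, beside 6.87, 9.35, 11.8 and 12.7% of all genes. By day 8 the falls ran from -1.28 (LIN28B) to -6.77 (NANOG) in the high purity class and from -2.24 (SALL4) to -7.22 (L1TD1) among those called in the low purity class. Because 1 TPM is added, this order is not that of the shares left: the low purity class kept 0.761% of L1TD1 on day 8, against 0.595% of SOX2 and 0.0576% of NANOG, and PRDM14 was at 0. LIN28B was the member not called there, at -0.91 (SE 0.07, limma adjusted p = 3.31e-15). None of the 9 genes rose by the test at any of these days in either class.

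Testing the change itself between the classes gave 3, 4, 3 and 1 genes on days 2, 4, 6 and 8, all with the higher value in the high purity class (a smaller fall, or for SALL4 on day 4 a level above day 0 against a fall), beside 1.65, 3.26, 3.2 and 4.32% of all genes in that direction. These comparisons share the day 0 wells with the falls above. On day 2 they were SOX2 (2.34, SE 0.35, limma adjusted p = 1.94e-06), NANOG (2.26, SE 0.16, limma adjusted p = 3.75e-14) and PRDM14 (1.10, SE 0.27, limma adjusted p = 0.0025). The PRDM14 call ended without TMM scaling (0.98), with a pseudocount of 0.1 (1.28, limma adjusted p = 0.123) and without the high purity day 2 well 4. On day 4 they were SOX2 (2.84), PRDM14 (1.87), SALL4 (1.57) and NANOG (1.5), and on day 6 SOX2 (1.76), PRDM14 (1.22) and L1TD1 (1.02). The L1TD1 call was lost without TMM scaling (0.98) and at 0.96 to 1.0 in 5 refits without 1 well (high purity day 0 well 1, day 6 wells 2 and 4, low purity day 0 well 1 and day 6 well 1). SOX2 alone was called on day 8 (2.27, SE 0.36, limma adjusted p = 2.71e-06). Its fall was thus the smaller in the high purity class at all 4 times tested.

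The speed of decline was also described by the time at which the mean TPM had dropped to 50% of day 0, interpolated on a log scale between sampled days. PRDM14 was first, at 0.53 days in the high purity class and 0.4 days in the low purity class. NANOG took 1.74 days in the high purity class and 0.59 days in the low purity class, and SOX2 took 1.01 and 0.48 days. DPPA4 took 1.14 and 0.81 days and L1TD1 0.83 and 0.69 days. The late genes were LIN28A at 5.9 and 1.56 days, SALL4 at 7.0 and 4.42 days and LIN28B at 7.31 and 10.58 days. The LIN28A times depend on small differences around 50%. On days 2, 4 and 6 the high purity class kept 58.0, 62.5 and 49.4% of LIN28A and the low purity class 41.0, 49.2 and 26.7%. The difference of its change was not called on days 2, 4, 6 and 8 (0.63, 0.41, 0.94 and 0.64). The time was longer in the high purity class for 7 of 9 genes, the exceptions being ZFP42 (0.81 and 1.2 days) and LIN28B. Times were not computed over all genes, so this count has no background share and describes these 9 genes only. That count was 7 whichever well was left out, and 7 with TMM-scaled TPM, which moved LIN28A to 4.8 and 1.38 days, SALL4 to 6.59 and 3.75 days and LIN28B to 7.07 and 8.48 days. Times under 2 days rest on an interpolation between days 0 and 2, with no sample between.

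**Figure D4:**
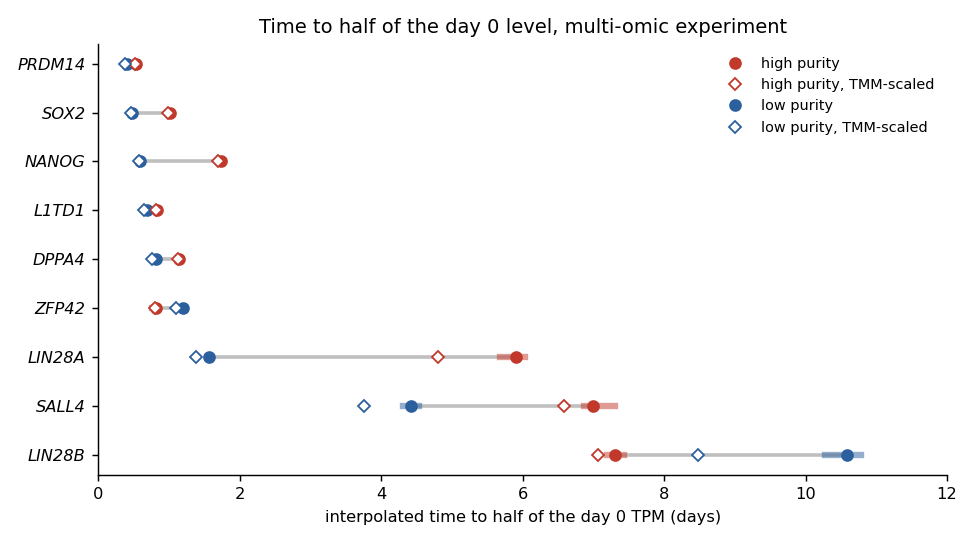
Days until the mean TPM of each gene reached 50% of its day 0 mean, in the high (red) and low (blue) purity class. Shaded bars show the range when 1 well at a time was left out, open diamonds the times from TMM-scaled TPM. Early genes (PRDM14, SOX2, NANOG, ZFP42, L1TD1, DPPA4) lie below 2 days in both classes. LIN28A shows a gap from 1.56 to 5.9 days, with 41.0 to 62.5% of its day 0 mean left in the classes on days 2 and 4.

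Late in the time course, low levels of several genes remained in both classes, and 4 genes were called higher in the high purity class on day 13. On day 13 L1TD1 was at 17.73 and 19.56 TPM in the 2 high purity wells and at 6.318, 7.177, 6.914 and 5.59 TPM in the low purity wells (1.57, SE 0.14, limma adjusted p = 1.69e-12). LIN28A was at 58.44 and 70.07 TPM against 30.82, 39.26, 34.57 and 35.23 TPM (1.05, SE 0.10, limma adjusted p = 1.47e-11). SALL4 was at 26.13 and 29.38 TPM against 13.69, 17.9, 13.86 and 14.03 TPM (1.05, SE 0.10, limma adjusted p = 1.23e-11). ZFP42 was at 2.856 and 4.411 TPM against 1.382, 1.847, 1.315 and 1.476 TPM (1.01, SE 0.21, limma adjusted p = 0.00012). None of these overlapped between the classes, whereas the LIN28B wells lay the other way (-0.67, SE 0.09, limma adjusted p = 2.89e-08, not called). Amnion and surface epithelium markers summed to 97.7 to 122 TPM in the high purity wells that day and to 9.77 to 14.3 TPM in the low purity wells, and their part in the result was not tested. Of the 4 calls only that of L1TD1 remained without TMM scaling, and leaving out the high purity replicate 3 or the low purity replicate 1 also left 1 call. Without the low purity replicate 3 the ZFP42 call was lost as well. On day 10, with 1 high purity well and hence no test, L1TD1 was at 15.43 TPM there and 10.5 to 12.5 TPM in the low purity wells. By day 16 the high and low purity means were 4.04 and 4.38 TPM for L1TD1 and 15.7 and 15.8 TPM for LIN28A. They were 0.967 and 1.09 TPM for ZFP42 and 16.6 and 9.91 TPM for SALL4.

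Other genes of the primed pluripotent state (the state of conventional human stem cells) were read from a list of 27. On days 2, 4, 6 and 8, 8, 14, 10 and 5 of them were higher in the high purity class and 0, 3, 3 and 2 lower, with medians of 0.68, 1.05, 0.4 and 0.14 against 0.00, 0.00, 0.00 and -0.025 over all genes. The shares of all genes called lower on these days were 3.07, 4.22, 5.19 and 7.5%. On day 2 the largest were FGF4, a growth factor gene controlled by SOX2 and OCT4 (1.85), NODAL, a TGF-beta family ligand (1.39), the long non-coding RNA ESRG (1.38) and the surface protein gene CD9 (1.35). On day 4 ZSCAN10, a zinc-finger factor of the network, was higher (2.5, at 22.2 ± 1.67 against 3.12 ± 0.628 TPM, SD, n = 4), as was the WNT modulator SFRP2 (2.4), while NODAL had turned to -2.46 (11.3 ± 3.09 against 66.0 ± 9.68 TPM). On day 8 the epithelial genes EPCAM (2.73) and CDH1 (2.6) and the homeobox gene OTX2 (2.03) were higher and PODXL, which codes for a sialomucin, lower (-2.81). DNMT3B, the de novo DNA methyltransferase of early cells, was not called on any of these days, at 0.55, 0.85, 0.84 and 0.51. Against day 0, 24 of the 27 had fallen by day 8 in the high purity class and 26 in the low purity class. ESRG had fallen, with log2 changes of -9.47 and -9.75.

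Of the genes of the LIN28 and let-7 axis (13 tested), none was called between the classes on days 0, 2 and 4. TRIM71, a let-7 target that acts with LIN28, was higher in the high purity class on day 6 (1.12, at 201 ± 25.6 against 91.0 ± 13.5 TPM, SD, n = 4), day 8 (1.35), day 13 (1.59) and day 16 (1.25). MYCN was higher on day 6 (1.07). MYC, MYCN, TRIM71 and HMGA2 had fallen by day 2 in both classes. Among relatives of the members (9 tested), NANOGP8, the retrogene copy of NANOG, was at 13.6 TPM on day 2 in the high purity class and 3.03 TPM in the low purity class (1.97). SALL1 was higher on day 4 (1.33, at 311 and 124 TPM) and was also called higher on days 6, 8, 13 and 16. Of 8 naive state genes tested, KLF5 (1.33) and SUSD2 (1.26) were higher on day 2, while TBX3 rose by 6.1 and 6.45 from day 0 to day 2 in the classes.

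The 9 genes did not share a single course. Over the 16 class and day means, the Pearson correlation of log2 levels between members, which share the libraries and the common fall from day 0, was highest for ZFP42 and L1TD1 (0.979) and lowest for NANOG and LIN28B (0.647). NANOG correlated with PRDM14 at 0.943 and with SOX2 at 0.913, and LIN28A with SALL4 at 0.942. Among 8329 other genes the one whose course was most like the mean of the 9 was DNMT3B (r = 0.992 over 16 means, and 0.978 over the 24 RNA-only libraries), followed by DHX57 (0.99), TPP2 (0.989), NDC1 (0.988), VSIG10 (0.988) and NAE1 (0.985). DNMT3B stood at 860 and 897 TPM on day 0 and 28.0 and 22.7 TPM on day 8 in the high and low purity classes. The closest single courses were CAMKV to PRDM14 (0.997), NAE1 to ZFP42 (0.994), HIST1H2BL to LIN28B (0.991), NDC1 to DPPA4 (0.991), MRPL11 to SOX2 (0.989), UNC13A to NANOG (0.988), NR6A1 to LIN28A (0.981), NAE1 to L1TD1 (0.979) and CECR2 to SALL4 (0.972). For HIST1H2BL and LIN28B the RNA-only correlation was 0.472. These correlations do not compare the size of a fall. In the high purity class MRPL11 was at 81.7 TPM on day 0 and 27.8 TPM on day 8. SOX2 was at 282 and 10.1 TPM. CAMKV, by contrast, was at 84.1 and 0.159 TPM, near PRDM14 at 79.4 and 0.152 TPM.

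The RNA-only libraries repeated the falls in other cell lines. Taking the 6 differentiations together with edgeR's quasi-likelihood test over 24810 genes and the differentiation as a block, 6, 7 and 8 of the 9 genes had fallen by stages 2, 3 and 4, beside 10.6, 15.4 and 15.8% of all genes. NANOG fell, with log2 changes of -4.60, -7.38 and -8.23 (SE 1.15 to 1.27, edgeR adjusted p = 0.00429, 0.000121 and 5.16e-05) as did SOX2, with -5.43, -6.06 and -6.25 (SE 0.85 to 0.91). The changes of PRDM14 were -4.89, -5.62 and -7.12, and those of L1TD1 -3.68, -4.69 and -5.49. DPPA4 (-2.40, -3.00 and -4.00) and ZFP42 (-2.23, -3.2 and -4.25) fell less. LIN28A was called from stage 3 (-1.07, then -1.52) and SALL4 at stage 4 only (-1.04, edgeR adjusted p = 0.00086). LIN28B was not called, at -0.35, -0.54 and -0.45, with all 24 libraries between 33.0 and 92.4 TPM. LIN28A, LIN28B and SALL4 thus had the smallest falls at the last stage, as they had on day 8 in both multi-omic classes. Without the block the SOX2 calls were lost at all 3 stages (edgeR adjusted p = 0.109, 0.0978 and 0.0828), as was that of NANOG at stage 2 (0.101). Without H9 the LIN28A call at stage 3 (-0.8) and the SALL4 call at stage 4 (-0.86) were lost, the latter also without IMR90-4 (-0.81).

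The 6 differentiations differed in how far they fell. Each line had 1 differentiation per class, so line and differentiation cannot be told apart. NANOG at stage 2 was at 0.545 TPM in the high and 0.15 TPM in the low purity differentiation of H9. IMR90-4 was at 4.63 and 6.05 TPM, and WTC11 at 20.3 and 64.0 TPM. WTC11 thus had the highest NANOG of the 3 lines, with its sample taken on day 2 and those of the others on day 3. SOX2 at stage 4 was at 1.41 and 0.337 TPM in H9, at 0.798 and 0.885 TPM in IMR90-4, and at 20.6 and 120 TPM in WTC11. In the low purity WTC11 differentiation SOX2 was at 166, 99.5, 102 and 120 TPM from stage 1 to 4, so most of it remained. LIN28A there was at 1140, 819, 694 and 852 TPM, and SALL4 at 53.1, 44.7, 62.8 and 51.2 TPM. PRDM14 was at 29.9, 7.38, 18.5 and 5.82 TPM, higher at stage 3 than at stage 2, while in the high purity WTC11 differentiation it was at 35.5, 2.32, 3.04 and 1.53 TPM. The multi-omic low purity WTC11 differentiation, also begun at passage 69, had a SOX2 mean of 4.29 TPM on day 6 (1.45% of day 0). The RNA-only one had 120 TPM that day (72.5%). For NANOG on day 2 the values were 8.96 TPM (multi-omic mean) and 64.0 TPM (RNA-only). In the low purity H9 differentiation SOX2, LIN28A and SALL4 reached 0.337, 91.6 and 11.7 TPM at stage 4, and PRDM14 was listed at 0. The SALL4 level above day 0 seen on day 4 in the multi-omic high purity wells had its nearest counterpart in the high purity H9 differentiation. SALL4 was there at 37.4, 68.5, 63.8 and 26.3 TPM, against 47.1, 37.3, 22.9 and 11.7 TPM in low purity H9. It was also above day 0 in low purity WTC11 at stage 3, but not in high purity WTC11 (55.6 against 56.6 TPM on day 0). At stage 2 it was above day 0 in high purity IMR90-4 (66.1 against 56.9 TPM) and low purity IMR90-4 (58.8 against 55.8 TPM).

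Purity class gave no call in these libraries. Between high and low purity, 0 of 9 genes were called at each of the 4 stages, none had an unadjusted p under 0.05, and DESeq2 and limma also called 0. Without H9, ZFP42 at stage 3 was called, at -1.42 (edgeR adjusted p = 0.0212). Over all genes edgeR called 0 (0%) at every stage, with 362, 1921, 1828 and 2916 genes at an unadjusted p under 0.05, DESeq2 called 0, 78, 52 and 202, and limma 0, 2, 0 and 9. The difference of the change from stage 1 was likewise called for 0 of 9 genes, and for 0 genes in all by edgeR. At stage 3 (day 4 or 5) the SE in that comparison was 1.54 for SOX2 and 2.20 for NANOG, beside multi-omic differences on day 4 of 2.84 and 1.5.

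The 3 lines went different ways. In H9, 8, 9 and 8 of the 9 genes were higher in the high purity library at stages 2, 3 and 4, as log2(TPM + 1), while in WTC11 0, 1 and 0 were and in IMR90-4 4, 4 and 3. The share over all genes was not computed. Differences near 0 are counted, such as NANOG in H9 at stage 3 (0.0382 against 0.00781 TPM, 4 reads and 1). By at least 1, 1, 2 and 5 genes were higher in H9 and 0 lower at each stage. In WTC11 4, 3 and 4 were lower, in IMR90-4 2, 1 and 1, and 0 higher in either. At stage 4 the median of the 9 was 1.04 in H9, -0.03 in IMR90-4 and -0.92 in WTC11, each from 1 library per class and so with no replicate check. The H9 direction was that of the multi-omic WTC11 wells, and the RNA-only WTC11 direction was the opposite. The high and low purity differentiations began at passages 52 and 69 in the multi-omic wells, 58 and 55 in H9, 55 and 75 in IMR90-4 and 81 and 69 in RNA-only WTC11. With 1 differentiation per class, purity, passage and an exchange of labels cannot be told apart for the WTC11 reversal. The cardiomyocyte markers ran as labelled there at stage 4, at 1590 TPM in the high and 728 TPM in the low purity library. Of all genes called on day 2 in the multi-omic wells and at least 0.5 apart in the line at stage 2, 63.7% had the same direction in H9, 35.1% in IMR90-4 and 30.1% in WTC11. For day 4 and stage 3 these shares were 87.2, 22.1 and 31.3%, and for day 6 and stage 4 they were 89.5, 45.6 and 55.9%.

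**Figure D5:**
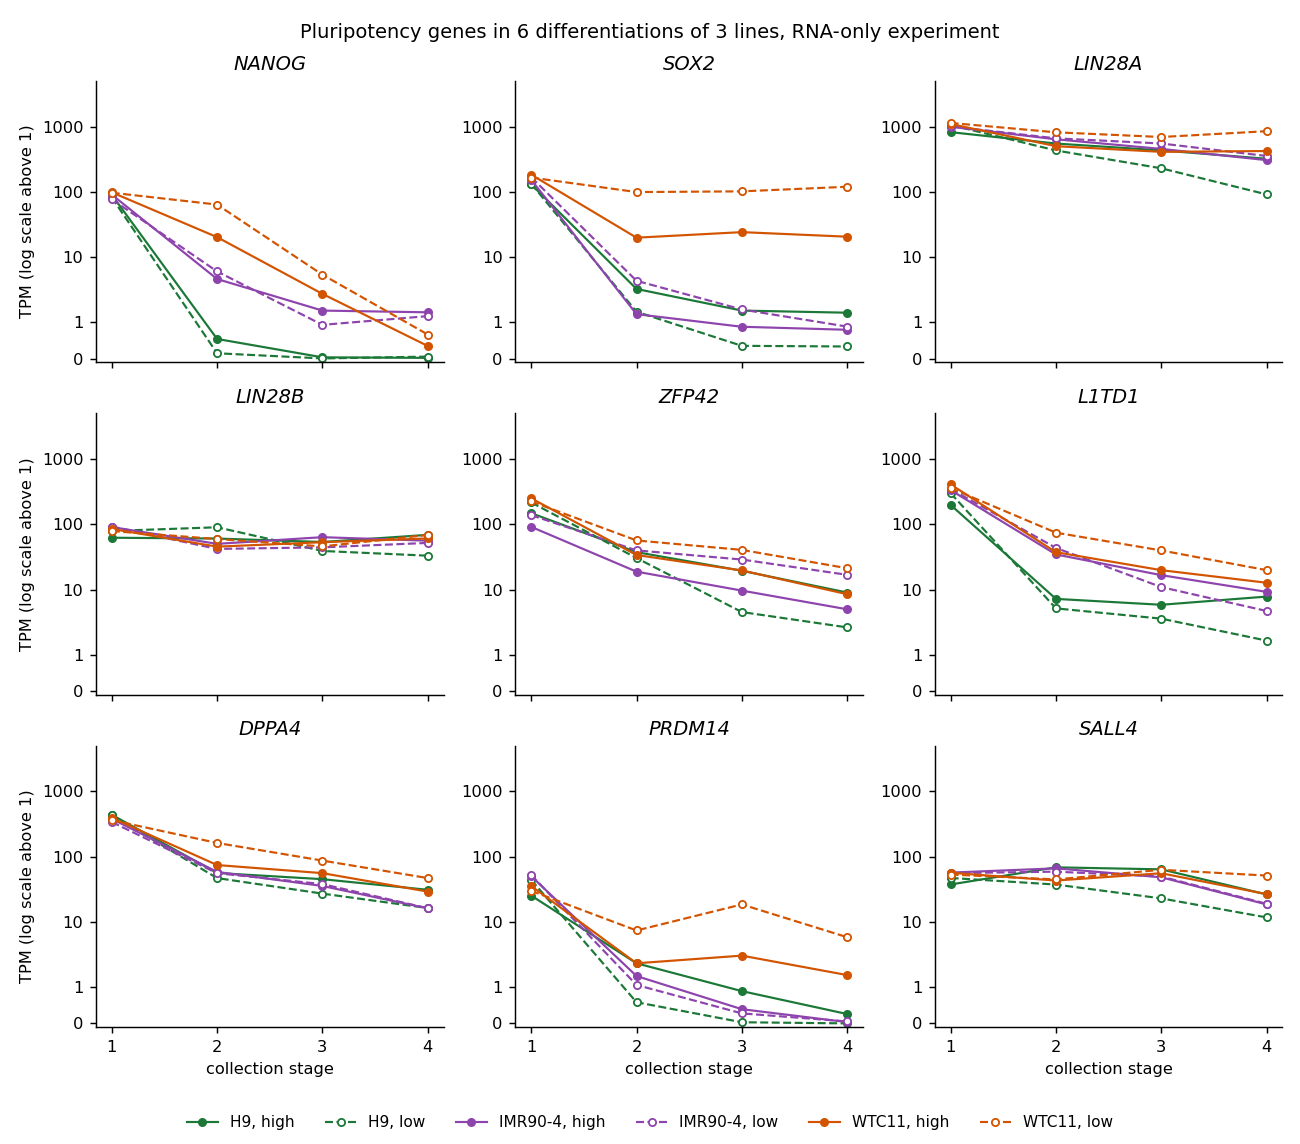
TPM of the 9 genes (axis on a log scale above 1 TPM and linear below) at stages 1 to 4 in the RNA-only experiment, 1 library per point, coloured by cell line (H9, IMR90-4, WTC11), with filled points and solid lines for high and open points and dashed lines for low purity. The low purity WTC11 differentiation holds SOX2 at 120 TPM at stage 4 where every other differentiation is at 20.6 TPM or less.

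Marker sums again differed within pairs. In H9, whose members ran the other way from those of WTC11, mesendoderm markers summed at stage 2 to 195 TPM in the high and 17.6 TPM in the low purity library, and cardiomyocyte markers to 21.8 and 228 TPM. At stage 4 the H9 endoderm markers summed to 31.6 and 3.88 TPM and its cardiomyocyte markers to 1740 and 343 TPM. In WTC11 at stage 2 germ cell markers summed to 35.0 TPM in the low and 9.93 TPM in the high purity library, and mesendoderm markers to 624 and 944 TPM. At stage 4 endoderm markers summed to 377 TPM in the low and 134 TPM in the high purity library, while neuroectoderm markers were at 100 and 92.8 TPM. Although these neuroectoderm sums were close, all 6 markers were at 1 TPM or more in the low purity library and 3 in the high purity library. In IMR90-4, whose members had no common direction, mesendoderm markers at stage 2 summed to 343 TPM in the high and 282 TPM in the low purity library. At stage 4 its endoderm markers summed to 180 and 508 TPM and its cardiomyocyte markers to 3080 and 3210 TPM. The part of the cells with these markers in the members' levels was not tested.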

How the data were processed

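RNA was sequenced in 56 multi-omic and 24 RNA-only libraries. The authors deposited TPM values and read counts per gene, and the submitters' processing notes name hg38, STAR 2.5.3a and featureCounts 2.0.3. The multi-omic tests used the deposited TPM table, since its count table carries other column names. Reads were recovered from TPM steps (100% of values whole within 0.05 reads in each library) and used for depth, floors and an edgeR alternative chosen after seeing the data, whereas the count test had been planned as an alternative under the count table's own names. TPM were divided by TMM factors and tested as log2(value + 1) with limma 3.58.1 (R 4.3.3; 16 group means, 40 residual degrees of freedom, genes at 1 TPM or more in at least 3 libraries). RNA-only tests used the deposited counts, with the line (8 residual degrees of freedom) or the differentiation (12) as a block in edgeR 4.0.16. DESeq2 1.42.0 was an alternative. The pipelines were tested on simulated data. Well numbers did not pair samples: of 353 pairs of wells with the same number in different groups, the correlation of deviations had a median of 0.000821 and was over 0.1 in 2. Named list genes were up to 4 called genes with the largest change per comparison and up to 2 not called. One list gene is not reported here. For likeness, the genes with the highest Pearson correlation of log2 means were taken. The members and lists were chosen with earlier results of these data known. Levels in the text are TPM as deposited. TPM is a share, so a gene's level also moves when others change. The arithmetic of interpolated times and ratios used TPM without TMM.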

Additional observations from a re-analysis of the deposited data

Results flagged for a closer look

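In 6 of the 96 groups of 4 wells (9 genes in each class and day), 1 well stood apart from the other 3 by Dixon's criterion, which chance meets in about 1 in 20 groups. LIN28B in high purity well 2 on day 4 was at 130.1 TPM (others 158.4 to 160.8 TPM). ZFP42 was at 161.0 TPM in high purity well 2 on day 0 (others 142.6 to 143.9 TPM) and at 38.51 TPM in low purity well 3 on day 2 (others 41.89 to 42.44 TPM). SALL4 in the low purity class was at 136.9 TPM in well 1 on day 0 (others 129.9 to 130.4 TPM), at 27.78 TPM in well 1 on day 8 (others 34.6 to 35.98 TPM) and at 17.9 TPM in well 2 on day 13 (others 13.69 to 14.03 TPM).

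The change from day 0 differed between the classes by limma's test of the difference itself for 5 genes, always with the higher value in the high purity class, where SALL4 on day 4 stood above its day 0 level and the others had fallen less. On day 2 the difference was 2.26 for NANOG, 2.34 for SOX2 and 1.1 for PRDM14 (log2 scale). On day 4 it was 1.5 for NANOG, 2.84 for SOX2, 1.87 for PRDM14 and 1.57 for SALL4. On day 6 it was 1.76 for SOX2, 1.02 for L1TD1 and 1.22 for PRDM14, and on day 8 it was 2.27 for SOX2.

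In the RNA-only libraries H9 and WTC11 differed in opposite directions by at least 1 on the log2(TPM + 1) scale, with 1 library per class in each line, so these differences were not tested. High over low purity was 1.8 in H9 and -1.01 in WTC11 for LIN28A at stage 4, and 1.07 and -1.33 for PRDM14 at stage 2. For ZFP42 it was 1.89 and -1.01 at stage 3 and 1.46 and -1.23 at stage 4.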

How the results depend on the processing

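The 84 called multi-omic member values were refitted 1329 times, leaving aside the edgeR fit of the deposited multi-omic counts. Of these refits, 1304 kept the call, 25 lost it and 0 turned its sign. The fit left aside is described below, and most of the 84 values did not keep their direction in it. Of 21 called RNA-only values, 179 of 189 refits kept the call and 0 turned its sign. Both tallies include the main fit with no fold threshold, in which a called value cannot lose its call or turn its sign. With the replicate block (well number), only the LIN28A call of day 13 ended (0.99). In the RNA-only data, the fit with no replicate block ended 6 calls, all named in the text except LIN28A at stage 3 (-0.96) and SALL4 at stage 4 (-0.93).

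Between the classes, the number of members called on days 0, 2, 4, 6, 8 and 16 became 2, 6, 8, 7, 5 and 3 with no fold threshold. On day 8 it was 2 with a pseudocount of 0.1, with no filter on low values and by edgeR on recovered reads. On day 13 it was 1 without TMM scaling, and on day 16 it was 1 without TMM scaling, with a pseudocount of 0.1 and by edgeR. For the difference of the change on days 2, 4, 6 and 8 it was 7, 7, 6 and 6 with no fold threshold.

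edgeR on the deposited counts, with their columns taken as named there, gave other numbers of calls, and 27 of 84 values kept their direction. Between the classes it called 1, 0, 7, 6 and 1 members on days 0, 4, 6, 8 and 13. In the low purity class it called 0, 0 and 1 on days 4, 6 and 8, and for the difference of the change 0, 0 and 4 on days 2, 4 and 8. That table's columns do not hold the reads of the TPM columns of the same name.

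Leaving out 1 well at a time, the counts between the classes ranged from 0 to 0, 2 to 4, 4 to 4, 2 to 3, 1 to 3, 1 to 4 and 0 to 1 on days 0, 2, 4, 6, 8, 13 and 16. The counts of falls stayed at 6, 6, 7 and 9 and at 7, 8, 8 and 8. The differences of the change ranged from 2 to 3, 4 to 4, 2 to 4 and 1 to 1. Leaving out 1 line, the RNA-only falls ranged from 6 to 6, 6 to 7 and 7 to 8, the class comparison from 0 to 1 at stage 3 and 0 to 0 at the other stages, and the difference of the change from 0 to 0. The number of genes later in the high purity class was 7 to 7, and 21 to 21 RNA-only values kept their direction.

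Without TMM scaling the median of all genes moved from -0.025 to -0.179 for high minus low on day 8 and from 0.108 to 0.27 for the low purity change to day 8. The share of calls above 0 then moved from 38.3 to 25.3%, from 42.2 to 30.6% and from 43 to 28.1% on days 8, 13 and 16. Low reads limit NANOG and PRDM14 from day 6 on.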
